A study of Mus musculus with 18 samples.

Results

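The integrin and laminin genes were followed in cultured mouse cortical astrocytes exposed to ethanol. Members were the protein-coding genes whose symbols are Itga or Itgb followed by a number, or Lama, Lamb or Lamc followed by a number, and the rule used no measured value. It selected 31 of the 51912 genes in the count table, of which 22025 are protein-coding. These were 12 integrin α subunits, 8 integrin β subunits, 5 laminin α chains, 3 laminin β chains and 3 laminin γ chains. The rule leaves out Itgav and the leucocyte α subunits Itgal, Itgam, Itgax, Itgae and Itgad, which carry letters in place of numbers and were read separately as a list.

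Integrins are cell surface receptors made of one α and one β subunit. They bind proteins of the extracellular matrix (ECM) and, through talin, kindlin and their partners, join them to the actin cytoskeleton. Laminins are heterotrimers of an α, a β and a γ chain, and they form the sheet of the basement membrane. In the brain, astrocyte endfeet rest on the basement membranes of vessels and of the pial surface, and astrocytes both secrete laminin chains and hold on to them through integrins and dystroglycan.

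The cultures came from postnatal day 0 (PD0) cortices of Aldh1l1-EGFP/Rpl10a mice, with males and females in equal number. In these mice the ribosomal protein L10a is fused to green fluorescent protein and driven by Aldh1l1, an astrocyte gene, so that an antibody to the tag pulls down the ribosomes of cells in which that gene is active and the RNA on them. This is translating ribosome affinity purification (TRAP). Every dish carried the transgene. Cells were grown for 14 days, replated, grown for another 6 days, kept without serum for 24 h and then given 50 mM ethanol in serum-free medium, or serum-free medium alone, for 24 h. The pulled-down RNA (IP) was sequenced from 6 control and 6 ethanol dishes, and the RNA of the lysate before pull-down (input) from 3 of those control dishes and 3 of those ethanol dishes, numbered 4 to 6 in each treatment. The libraries held 74239854 to 132810705 read pairs assigned to genes, with a median of 84119135. Nothing in the sources says whether the dishes came from separate culture preparations, so p-values measure no more than the spread between dishes. Levels are CPM, read pair counts scaled to a common library depth, and CPM per kb of merged exons where genes are compared with each other.

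The cultures carried astrocyte RNA, and the IP carried more of it than the input. The summed level of 10 astrocyte markers was 1733 to 1929 CPM over the IP libraries and 1103 to 1183 CPM over the input libraries, and 8 of the 10 were higher in the IP. Markers of other cell types were also present. Microglial markers summed to 96.5 to 113 CPM in the input and 16.7 to 20.5 CPM in the IP, with 9 of 10 lower in the IP. Fibroblast markers summed to 350 to 360 CPM in the input and 224 to 253 CPM in the IP, with 6 of 9 lower and 2 higher. Mural cell markers were high in both fractions, among them the smooth muscle actin gene Acta2. In control libraries the mural markers summed to 1507 to 1581 CPM in the input and 1927 to 2079 CPM in the IP. Of the 10 mural markers 5 were higher and 2 lower in the IP, where most microglial and fibroblast markers were lower. Which cells the mural marker RNA came from was not tested. The mural marker Tagln had 244 to 666 read pairs per library in the unstranded counts and 57781 to 140871 on its own strand, so mural sums given here leave most of its pairs out. Endothelial markers were low, at 12.7 to 16 CPM for 8 of 10 genes, with Cldn5 and Tie1 under the count filter. Shifts in these lists may reflect the number of cells of a type or the RNA per cell, and these cannot be told apart in bulk libraries.

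All 31 members passed the filter of 10 read pairs over the 18 libraries, and 28 had a mean of at least 1 CPM in either fraction. The other 3 were low in both. Lamc3, a γ chain, was at 0.42 CPM in the IP and 0.262 CPM in the input. Itgb7, a β subunit of lymphocytes, was at 0.153 CPM and 0.139 CPM, and Itgb6, a β subunit of epithelia, at 0.0248 CPM and 0.021 CPM, with 0 to 6 read pairs per library.

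In control IP libraries 6 genes carried most of the integrin and laminin message. Itgb1, the β subunit shared by most laminin and collagen receptors, stood first at 325 ± 4.16 CPM per kb (SD, n = 6). Lamb2, the laminin β chain of synaptic, kidney and vascular basement membranes, followed at 150 ± 1.48 CPM per kb. Itgb5, which pairs with Itgav in a receptor for vitronectin, was at 123 ± 1.2 CPM per kb, and Itga3, which pairs with Itgb1 to bind laminins, was at 80.4 ± 1.59 CPM per kb. Lamc1, the γ chain of most laminins, and Lama5, an α chain of vascular and epithelial basement membranes, followed at 59.3 ± 0.922 and 57.2 ± 1.5 CPM per kb and lay closer together than the others. The next member, the fibronectin receptor subunit Itga5, was at 12.5 CPM per kb. The letter-named Itgav, at 32.7 ± 1.29 CPM per kb, fell between Lama5 and Itga5.

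**Figure D1:**
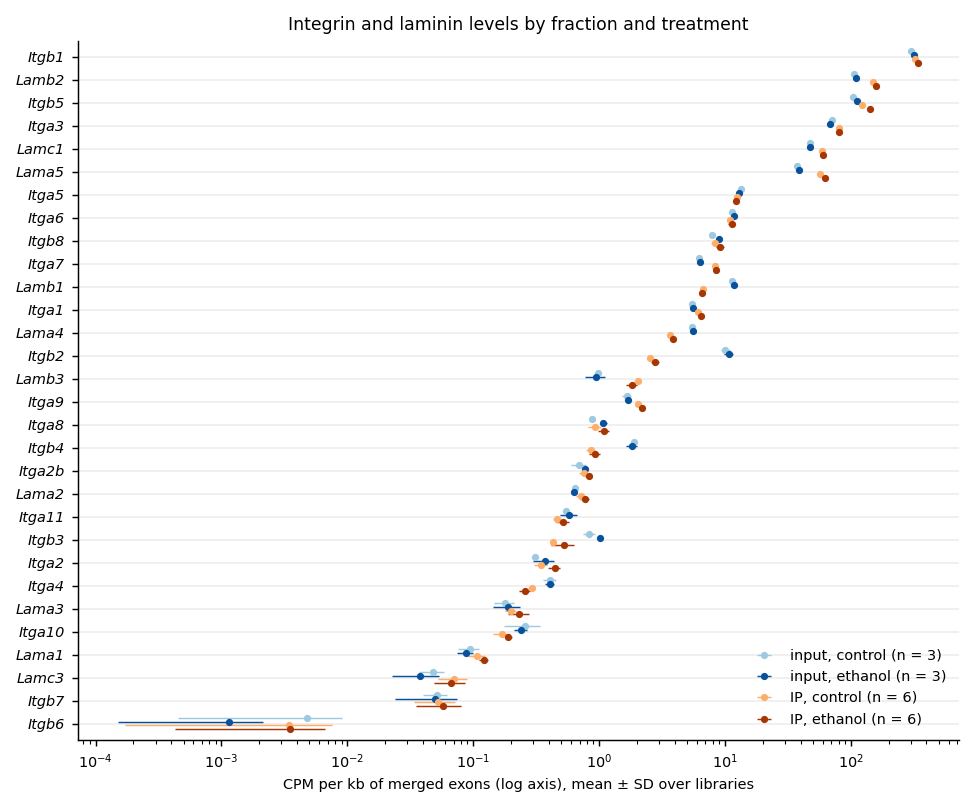
Level of integrin and laminin genes in CPM per kb of merged exons on a log axis, with genes ordered by the control IP libraries. Points are means and bars SDs over libraries (3 input and 6 IP libraries per treatment), and the lower bar is cut short where the SD exceeds the mean; Itgb1 stands first at 325 CPM per kb and Itgb6 last at 0.00343 CPM per kb in control IP libraries.

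Among the laminin α and β chains a single chain of each class made up most of the message. Lama5 held 92.4 ± 0.298% (SD, n = 6) of the summed laminin α level per kb in control IP libraries and Lamb2 held 94.5 ± 0.26% of the β level. In control input libraries the same chains held 85.3 ± 0.767% and 89.6 ± 0.423% (SD, n = 3). Lama4, the α chain of endothelial and mural laminins, held 12.6 ± 0.626% of the α level in the input and 5.97 ± 0.308% in the IP. Lamb1 held 9.6 ± 0.434% of the β level in the input and 4.25 ± 0.212% in the IP. Lama2, the α chain of the laminin known from astrocyte endfeet and muscle, held 1.15 ± 0.0912% of the α level in the IP, and Lama1, the α chain of the pial and embryonic laminin, 0.175 ± 0.0263%. The ranges of the Lama5, Lama4, Lamb2 and Lamb1 shares did not overlap between the fractions. Summed over chains, the β level was 2.57 ± 0.0483 times the α level in control IP libraries.

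**Figure D2:**
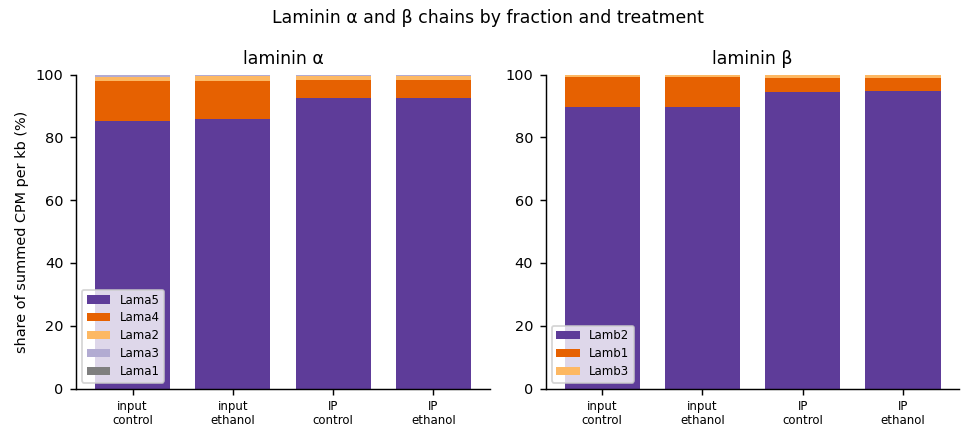
Share of each laminin α and β chain in the summed CPM per kb of its class, in percent, as means over 3 input or 6 IP libraries per bar. Lama5 and Lamb2 hold 85.3% or more of their class in all 4 groups, and the orange segments of Lama4 and Lamb1 are smaller in the IP than in the input.

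The integrin β level was shared mainly by Itgb1, with 70.6 ± 0.286% in control IP libraries, and Itgb5, with 26.7 ± 0.353%. Itgb8, which with Itgav activates latent TGF-β and is known from astrocytes, held 1.83 ± 0.111%. On the α side, with Itgav included, Itga3 held 51.5 ± 0.734% and Itgav 21% (19.9 to 21.6%). Itga5 held 8.01 ± 0.212%, the laminin-binding Itga6 6.97 ± 0.243%, and the laminin-binding Itga7 5.37 ± 0.102%. The collagen and laminin receptor subunit Itga1 held 3.94 ± 0.241%, and the remaining 7 α subunits each held less than that.

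The comparison of IP with input asks which of these messages were over- or under-represented on the tagged ribosomes. Laminin chains were mostly higher in the IP, and integrin subunits were split. Of the 31 members, 25 passed the threshold in edgeR's quasi-likelihood test with Benjamini-Hochberg adjustment, 15 of them higher and 10 lower in the IP, where 51% of all 24495 genes tested were called, 25.2% higher and 25.8% lower. Of the genes averaging 1 CPM or more, 76.3% were called. For 15 members the 12 IP and 6 input libraries did not overlap, which held for 25% of all genes. Among laminins 8 of 11 were higher and 2 lower, and among integrins 7 of 20 were higher and 8 lower. The median log2 fold change was 0.34 over the laminins and 0.09 over the integrins, and -0.03 over all genes tested.

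Lamb3, a β chain of epithelial laminin, was 2-fold higher in the IP. Its lowest, median and highest levels were 9.87, 12.7 and 15.1 CPM over the 12 IP libraries and 5.21, 6.41 and 7.43 CPM over the 6 input libraries, so that every IP library lay above every input library. The log2 fold change was 1.0 ± 0.0625 (SE; edgeR adjusted p = 3.74e-14). Lama3, an α chain of epithelial laminin, lay at 1.75, 2.24 and 3.02 CPM in the IP and 1.54, 1.91 and 2.51 CPM in the input, and its log2 difference of 0.22 (95% interval 0.03 to 0.42) did not pass after adjustment (edgeR adjusted p = 0.0598). Leaving out one of input_control 5, input_ethanol 6, IP_control 4, IP_ethanol 3 or IP_ethanol 4 gave values of 0.24 to 0.302 that passed.

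The 3 abundant laminin chains were all higher in the IP. Lama5 lay at 631, 670 and 756 CPM over the IP libraries and at 410, 437 and 454 CPM over the input libraries, without overlap, a log2 difference of 0.64 ± 0.0234 (edgeR adjusted p = 2.2e-26). Lamb2 differed by 0.50 ± 0.0184 and Lamc1 by 0.32 ± 0.0177, and the fractions did not overlap for either. Lamb1 and Lama4, the second chains of their classes, went the other way. Lamb1 lay at 61.8, 67 and 71.8 CPM in the IP and 110, 117 and 119 CPM in the input, lower by a log2 difference of -0.80 ± 0.0224 (edgeR adjusted p = 6.53e-44). Lama4 lay at 42.8, 45.3 and 48.7 CPM in the IP and 63.8, 66.8 and 70.8 CPM in the input, with a log2 difference of -0.56 ± 0.025 (edgeR adjusted p = 1.95e-31). The ratio of Lamb2 to Lamb1 per kb was thereby 22.3 ± 1.18 in control IP libraries against 9.35 ± 0.476 in control input libraries, and that of Lama5 to Lama4 was 15.5 ± 0.862 against 6.8 ± 0.391. Of 9 fibroblast markers 6 were lower in the IP, as Lamb1 and Lama4 were, and 2 were higher. Among the lower ones Col1a1 was at -1.62 and Dcn at -1.87 on the log2 scale. The part of fibroblast RNA in the result was not tested. Of the mural markers 5 of 10 were higher and 2 lower in the IP, with Pdgfrb at -0.54, Acta2 at 0.43 and Cnn1 at 0.73.

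The rare laminin chains followed the abundant ones. Lama1 was higher by 0.34 ± 0.116 and Lama2 by 0.22 ± 0.0439, and Lamc3, at 0.205 to 0.54 CPM in the IP and 0.138 to 0.331 CPM in the input, by 0.68 ± 0.207 (edgeR adjusted p = 0.00374). For these 3 the fractions overlapped. The Lama1 call was lost without input_ethanol 5 (log2 difference 0.273, edgeR adjusted p = 0.0586).

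Among integrins the 4 members that were lowest in the IP included 3 β subunits with known cell type restrictions. Itgb2, the β subunit of leucocytes and microglia, lay at 6.95, 8.1 and 9.27 CPM over the IP libraries and 29.3, 31.5 and 35.9 CPM over the input libraries, 3.93-fold lower in the IP (log2 difference -1.97 ± 0.0385, edgeR adjusted p = 1.27e-45). The α partners of Itgb2 outside the rule moved alike, with Itgam at -2.74 ± 0.0741 and Itgal at -2.32 ± 0.0571, as did the microglial markers Csf1r at -2.56 and Ptprc at -2.80. The microglial sums given above moved with these genes, and their part in the result was not tested.

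Itgb4, the partner of Itga6 in epithelial and peripheral nerve laminin receptors, lay at 5.55, 6.31 and 7.53 CPM in the IP and 11.5, 13.2 and 14 CPM in the input (log2 difference -1.06 ± 0.0479, edgeR adjusted p = 4.27e-29). Itgb3, the β subunit of platelets, endothelium and macrophages, lay at 2.38, 2.63 and 3.89 CPM in the IP and 4.47, 5.64 and 6.18 CPM in the input (log2 difference -0.96 ± 0.0704, edgeR adjusted p = 4.65e-18). Itga4, a fibronectin and VCAM1 receptor subunit, lay at 3.18, 3.84 and 4.47 CPM in the IP and 5.12, 5.64 and 6.38 CPM in the input (log2 difference -0.56 ± 0.0592, edgeR adjusted p = 2.62e-13). None of these 3 overlapped between the fractions. Exons of Itga4 overlap those of Cerkl on the other strand, and read pairs shared by both were set aside in the counting; with counts of its own strand the gene kept its direction and call.

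The remaining integrins moved less. Itga7 was higher in the IP by 0.43 ± 0.0232, Itga9 by 0.32 ± 0.0363, Itgb5 by 0.28 ± 0.0193, Itga3 by 0.21 ± 0.02, Itga1 by 0.19 ± 0.0254 and Itgb1 by 0.11 ± 0.0171 on the log2 scale. Itga2, a collagen receptor subunit at 2.11 to 3.54 CPM in the IP, was higher by 0.21 ± 0.0781, and this call was lost without input_ethanol 4 (0.132, edgeR adjusted p = 0.172). Lower in the IP were Itga10 at -0.47 ± 0.114, Itga11 at -0.19 ± 0.0744, Itga5 at -0.08 ± 0.0224 and Itga6 at -0.07 ± 0.0233. The Itga11 call was lost when any one of input_control 5, input_ethanol 5, input_ethanol 6, IP_control 2 or IP_ethanol 6 was left out, with values from -0.156 to -0.178. Itga8, the nephronectin receptor subunit, did not pass (0.03, 95% interval -0.07 to 0.14), nor did Itgb8 (0.06, -0.03 to 0.15), Itga2b (0.11, -0.00 to 0.23), Itgb6 or Itgb7. Over the 12 libraries of dishes sequenced in both fractions, with dish as a block, Itgb8 (0.123) and Lama3 (0.275) were called higher in the IP, and Itga6 (-0.04) and Itga11 (-0.158) did not pass; these 4 calls were the same over these libraries without the block. Of the Itga2b read pairs 16.1% lay on the opposite strand, and with counts of the gene's own strand or without input_control 5 (0.164) Itga2b was called higher in the IP.

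**Figure D3:**
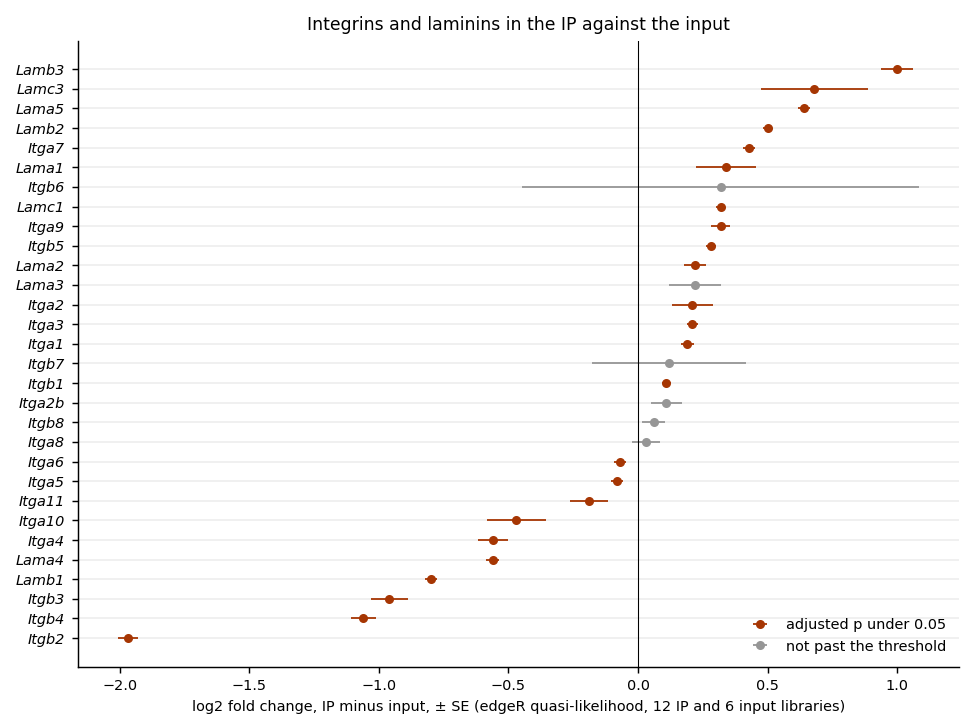
Log2 fold change of members, IP minus input, with its SE, from edgeR's quasi-likelihood test on 12 IP and 6 input libraries. Lamb3 stands highest at 1.0 and Itgb2 lowest at -1.97, and grey points are the 6 members that did not pass the threshold.

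The ethanol comparison asks which members changed after 24 h of 50 mM ethanol, in the IP and in the input. The integrin subunits Itgb1, Itgb3, Itgb5 and Itga8 were upregulated in both fractions, by small amounts. In the IP, 12 of 31 members were called by edgeR's quasi-likelihood test with Benjamini-Hochberg adjustment, 10 upregulated and 2 downregulated, where 21.4% of all genes tested were called, 11.9% upregulated and 9.48% downregulated. With trends in GC content and transcript length removed from each library, 10 members were called in the IP, 5 upregulated and 5 downregulated, and over all genes 2615 and 2743 were up- and downregulated in place of 2911 and 2322. Of the genes averaging 1 CPM or more, 36.8% were called. In the input, 7 of 31 were called, 5 upregulated and 2 downregulated, where 15% of all genes were called, 7.21% upregulated and 7.78% downregulated, and 26.4% of those averaging 1 CPM or more. The groups did not overlap for 3 members in the IP, against 9.96% of all genes, and for 6 members in the input, against 27.1% of all genes. The median log2 fold change over the members was 0.11 in the IP and 0.03 in the input, and over all genes tested 0.01 and 0.00. The largest called change was that of Itga2 in the IP, 1.3-fold. None of the 12 and none of the 7 remained when the test asked for more than a 1.2-fold change. Few genes did: 95 of 24495 passed that test in the IP and 55 in the input. Not passing it does not show that a change was below 1.2-fold.

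The members upregulated in both fractions were Itga8, Itgb1, Itgb3 and Itgb5. These 4 are among the 10 members upregulated in the IP and the 5 upregulated in the input. In the IP, Itgb5 lay at 431, 434 and 442 CPM (lowest, median and highest of 6) in control libraries, and the 6 ethanol libraries gave 471, 514, 513, 495, 510 and 517 CPM. In the input the control dishes gave 362, 368 and 375 CPM and the ethanol dishes 394, 410 and 402 CPM. No ethanol library overlapped the controls of its fraction, and the log2 fold change was 0.22 ± 0.0232 in the IP (edgeR adjusted p = 6.73e-11) and 0.12 ± 0.0227 in the input (edgeR adjusted p = 1.79e-06). Its α partner Itgav was 0.07 ± 0.0427 higher in the IP, which did not pass (edgeR adjusted p = 0.307), and 0.07 ± 0.0228 higher in the input, which did (edgeR adjusted p = 0.0111).

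Itgb1, the most abundant member, rose by 1.06-fold in each fraction. Control IP libraries ranged from 1298.6 to 1343.5 CPM with a median of 1327.6 CPM, and ethanol IP libraries from 1368.4 to 1452.7 CPM with a median of 1398.6 CPM. In the input the levels were 1229.8, 1193.1 and 1247.4 CPM in control dishes and 1280.6, 1284.7 and 1320.1 CPM in ethanol dishes. Again no libraries overlapped, with log2 fold changes of 0.09 ± 0.0215 in the IP (edgeR adjusted p = 0.00114) and 0.08 ± 0.0216 in the input (edgeR adjusted p = 0.00337). Without input_control 5 or input_ethanol 6 the input value of 0.06 did not pass. Over IP replicates 1 to 3 alone the IP value of 0.082 did not pass (edgeR adjusted p = 0.076).

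Itga8, which pairs with Itgb1, was far less abundant. It lay at 5.64, 6.78 and 7.82 CPM in control IP libraries and 7.27, 7.88 and 9.39 CPM in ethanol IP libraries, which overlapped, and at 6.7, 6.41 and 6.48 CPM in control and 7.38, 8.22 and 8.31 CPM in ethanol input libraries, which did not. The log2 fold change was 0.24 ± 0.0679 in the IP (edgeR adjusted p = 0.0082) and 0.28 ± 0.079 in the input (edgeR adjusted p = 0.00401). The call held when any single library was left out of either fraction.

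The level of Itgb3 also rose in both fractions, from a lower base. It lay at 2.43, 2.57 and 2.67 CPM in control IP libraries and 2.38, 3.08 and 3.89 CPM in ethanol IP libraries, and at 4.84, 5.52 and 4.47 CPM in control and 6.12, 6.18 and 5.75 CPM in ethanol input libraries. The ethanol IP libraries spread widely around the controls, while the input libraries were separate. The log2 fold change was 0.27 ± 0.0961 in the IP (edgeR adjusted p = 0.0385) and 0.28 ± 0.0888 in the input (edgeR adjusted p = 0.0156). In the IP the call was lost when any one of 9 of the 12 libraries was left out, with values of 0.192 to 0.275, and in the input it was lost without input_control 4, input_control 6 or input_ethanol 5 (0.209 to 0.261). The 3 IP libraries whose removal kept the call were IP_ethanol 1, IP_ethanol 3 and IP_ethanol 5. Over IP replicates 1 to 3 alone the value was 0.113 and over replicates 4 to 6 it was 0.401, and with GC and length trends removed the IP value of 0.223 did not pass. It also did not pass with own-strand counts (0.255) or the bias-adjusted quasi-likelihood (0.264).

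The start-site windows of the members that rose together in both fractions are shown for 3 genes with an entry among the RefSeq windows of GRCm38.p6. Each is the 250 bases before the start site, read 5′ to 3′ on the gene's strand, with capitals marking matches to the motifs searched. The genes themselves span chr2:12106632-12301922 (Itga8), chr8:128685654-128733200 (Itgb1) and chr16:33829665-33949338 (Itgb5). The window of Itga8 lies at chr2:12301945-12302194 on the minus strand, that of Itgb1 at chr8:128685404-128685653 on the plus strand, and that of Itgb5 at chr16:33829415-33829664 on the plus strand.
Itga8: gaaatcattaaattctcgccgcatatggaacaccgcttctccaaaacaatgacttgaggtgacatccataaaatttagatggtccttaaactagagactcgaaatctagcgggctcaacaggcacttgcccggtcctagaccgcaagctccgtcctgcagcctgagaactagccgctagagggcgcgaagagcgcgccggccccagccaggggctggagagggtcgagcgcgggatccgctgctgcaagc
Itgb1: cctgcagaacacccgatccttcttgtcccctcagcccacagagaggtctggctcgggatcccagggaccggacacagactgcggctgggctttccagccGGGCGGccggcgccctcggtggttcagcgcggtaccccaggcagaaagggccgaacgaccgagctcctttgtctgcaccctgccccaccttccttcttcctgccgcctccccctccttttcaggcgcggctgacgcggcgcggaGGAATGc
Itgb5: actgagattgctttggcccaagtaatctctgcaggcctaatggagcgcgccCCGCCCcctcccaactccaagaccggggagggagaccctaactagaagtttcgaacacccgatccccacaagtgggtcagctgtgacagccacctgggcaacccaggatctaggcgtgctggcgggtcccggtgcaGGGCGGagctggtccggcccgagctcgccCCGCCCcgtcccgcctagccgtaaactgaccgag
Both strands were searched for GGGCGG, the SP and KLF core, GGAATG, bound by TEAD factors, TGANTCA, bound by AP-1, CACGTG, bound by Myc, and the CArG box of serum response factor. Capitals in these windows were 3 matches to GGGCGG in Itgb5, 1 in Itgb1, and 1 match to GGAATG in Itgb1, and no matches overlapped each other. Itga8 held none of the letters searched. GGGCGG occurs in 32.7% and GGAATG in 12.6% of all 32851 windows of this length. Of the 31 members 20 had a window, 23 windows in all, of which 8 held GGGCGG and 3 GGAATG. The CArG box was in 2 of the 23 windows, those of Itgb6 and Lama2, and in 1.47% of all windows, and no member window held TGANTCA or CACGTG, which occur in 6.75% and 6.02% of all windows. The windows were rich in CG, with 18 CG dinucleotides in Itga8, 21 in Itgb1 and 18 in Itgb5 against a median of 6 over all windows.

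**Figure D4:**
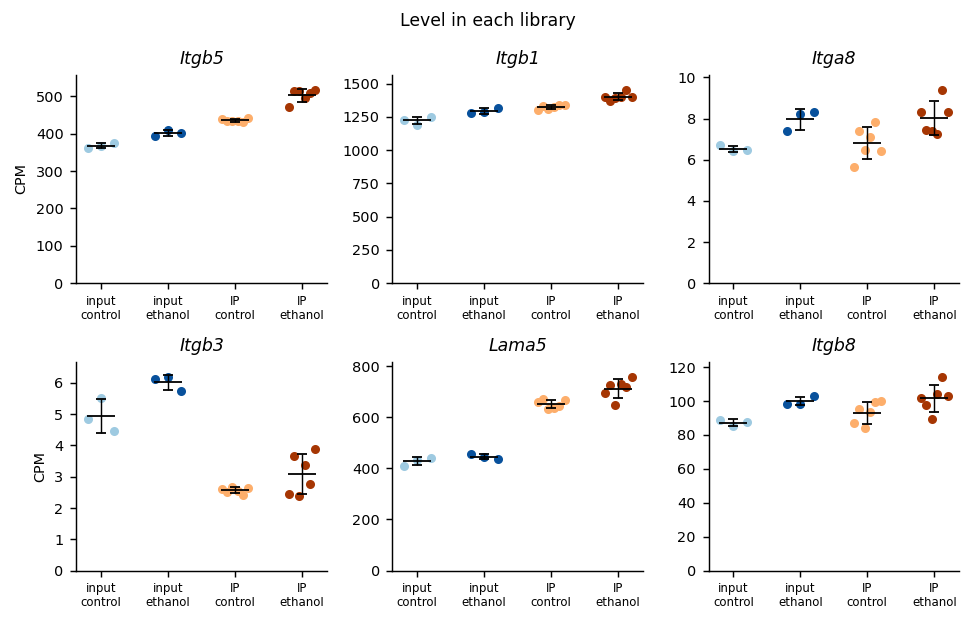
Level of Itgb5, Itgb1, Itga8, Itgb3, Lama5 and Itgb8 in each library in CPM, with points for single libraries and black lines for the mean ± SD (3 input and 6 IP libraries per treatment). Itgb5 and Itgb1 separate control from ethanol in both fractions, Itga8, Itgb3 and Itgb8 in the input, and Lama5 in neither.

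Further members were called in one fraction. Itga2 rose most in the IP, from 2.11, 2.38 and 2.98 CPM in control to 2.67, 3.22 and 3.54 CPM in ethanol libraries (log2 fold change 0.37 ± 0.0855, edgeR adjusted p = 0.000585). The groups overlapped. In the input it lay at 2.14, 2.23 and 2.23 CPM in control and 2.08, 3 and 2.86 CPM in ethanol dishes, and its value of 0.26 (95% interval 0.00 to 0.51) did not pass, though it did without input_ethanol 4 (0.411).

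Itgb8 showed the reverse pattern of calls. The input libraries lay at 88.8, 85.2 and 87.9 CPM in control and 98.5, 98.5 and 103 CPM in ethanol dishes, without overlap (log2 fold change 0.19 ± 0.0266, edgeR adjusted p = 4.56e-11). The IP libraries lay at 84, 94.4 and 99.8 CPM in control and 89.6, 103 and 114 CPM in ethanol dishes, and overlapped (0.13 ± 0.0608, edgeR adjusted p = 0.163). Within IP replicates 1 to 3 (0.126, edgeR adjusted p = 0.0125) and within replicates 4 to 6 (0.132, edgeR adjusted p = 0.00143) the increase passed, as it did without IP_ethanol 3 (0.162). These subsets are parts of the IP comparison that did not pass. Their fits took the spread of most genes from the trend over all genes, so passing in both does not replicate the increase.

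The abundant laminin chains Lama5 and Lamb2 were upregulated in the IP. Lama5 went from 631, 651 and 673 CPM to 648, 721 and 756 CPM (log2 fold change 0.13 ± 0.0262, edgeR adjusted p = 9.91e-05). Lamb2 went from 904, 912 and 924 CPM to 922, 967 and 997 CPM (0.09 ± 0.0226, edgeR adjusted p = 0.00325), and the groups overlapped for both. In the input Lama5 lay at 410, 431 and 440 CPM in control and 454, 445 and 435 CPM in ethanol dishes (0.06 ± 0.0225, edgeR adjusted p = 0.0818), and passed without input_control 6 (0.076). Lamb2 lay at 639, 656 and 664 CPM and 687, 679 and 664 CPM (0.05 ± 0.0221, edgeR adjusted p = 0.152). With trends in GC content and transcript length removed from each library, the log2 fold change in the IP was 0.027 for Lama5 and 0.006 for Lamb2 and neither passed. Over IP replicates 1 to 3 alone Lama5 was at 0.079 (edgeR adjusted p = 0.106) and Lamb2 at 0.058 (edgeR adjusted p = 0.29), and neither passed. Over replicates 4 to 6 Lama5 was at 0.179. Lamc1 did not pass in either fraction, with 0.02 (95% interval -0.02 to 0.06) in the IP and -0.02 (-0.06 to 0.02) in the input.

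Lamb3 was downregulated in the IP. It went from 12.7, 13.2 and 15.1 CPM to 9.87, 12.3 and 13.3 CPM with overlap (log2 fold change -0.15 ± 0.0532, edgeR adjusted p = 0.0333), and in the input lay at 6.2, 6.65 and 6.63 CPM in control and 6.13, 5.21 and 7.43 CPM in ethanol dishes (-0.06 ± 0.0832, edgeR adjusted p = 0.738). The IP call was lost when any one of IP_control 2, IP_control 3, IP_ethanol 2, IP_ethanol 4 or IP_ethanol 5 was left out, with values of -0.105 to -0.156. Lama3 did not pass and its value was positive, 0.22 (95% interval 0.02 to 0.42) in the IP. Over IP replicates 4 to 6 it passed at 0.393, and without IP_ethanol 3 at 0.294.

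Integrin subunits Itga9, Itga1 and Itgb2 passed in the IP near the threshold. Itga9, a tenascin and osteopontin receptor subunit, went from 14.7, 15.5 and 16.5 CPM to 16, 16.9 and 17.7 CPM (0.12 ± 0.0402, edgeR adjusted p = 0.0192). Itga1 went from 108, 113 and 123 CPM to 114, 122 and 127 CPM (0.09 ± 0.0313, edgeR adjusted p = 0.0315). Itgb2 went from 6.95, 7.89 and 8.25 CPM to 7.35, 8.66 and 9.27 CPM (0.14 ± 0.054, edgeR adjusted p = 0.0466). All 3 overlapped between treatments. The Itga9 call was lost without IP_control 3, IP_control 5, IP_control 6, IP_ethanol 3 or IP_ethanol 4 (0.106 to 0.112), the Itga1 call without any one of 8 of 12 libraries (0.069 to 0.096; all but IP_control 5, IP_control 6, IP_ethanol 2 and IP_ethanol 3), and the Itgb2 call without any one of 10 of 12 libraries (0.108 to 0.146), IP_control 2 and IP_ethanol 5 being the exceptions. With GC and length trends removed none of the 3 passed, at 0.072, 0.047 and 0.134. The DESeq2 test did not call Itga1 (adjusted p = 0.0561) or Itgb2 (adjusted p = 0.0529), nor did edgeR with own-strand counts or either other scaling; Itgb2 was also lost without the filter on low counts and with the bias-adjusted quasi-likelihood.

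In the input these 3 did not pass. Itga9 lay at 12.2, 12.2 and 14.1 CPM in control and 12.8, 13.1 and 13.6 CPM in ethanol dishes, and Itga1 at 104, 99.7 and 102 CPM and 102, 104 and 108 CPM. Itgb2 lay at 33.9, 29.3 and 29.4 CPM and 35.9, 30.6 and 32.5 CPM (0.09, 95% interval 0.02 to 0.17), and passed without input_control 4 (0.165) or input_ethanol 5 (0.147). The microglial marker Csf1r moved with Itgb2, at 0.33 ± 0.0729 in the IP and 0.22 ± 0.0443 in the input, where the marker list as a whole had 1 of 10 and 2 of 10 genes upregulated and none downregulated; its part in the result was not tested.

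Among integrins Itga3 was called lower after ethanol, in the input. It lay at 406, 399 and 412 CPM in control and 399, 397 and 372 CPM in ethanol input dishes (log2 fold change -0.06 ± 0.0226, edgeR adjusted p = 0.0437). The groups overlapped at 399 CPM, and the call was lost without input_control 4 (-0.061), input_control 6 (-0.052) or input_ethanol 6 (-0.035). It was also lost with the DESeq2 test (adjusted p = 0.0609), with either other scaling, without the filter on low counts and with the bias-adjusted quasi-likelihood, at -0.053 to -0.062. In the IP its level lay at 442, 460 and 467 CPM in control and 425, 458 and 480 CPM in ethanol libraries, a log2 fold change of 0.0014 (95% interval -0.05 to 0.05), which became -0.064 and passed with GC and length trends removed. Itga4 and Itga5 were not called lower in the IP by edgeR as fitted (-0.17, adjusted p = 0.0892, and -0.02, adjusted p = 0.766), but passed with those trends removed (-0.217 and -0.071), and Itga4 passed without IP_ethanol 5 (-0.22).

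**Figure D5:**
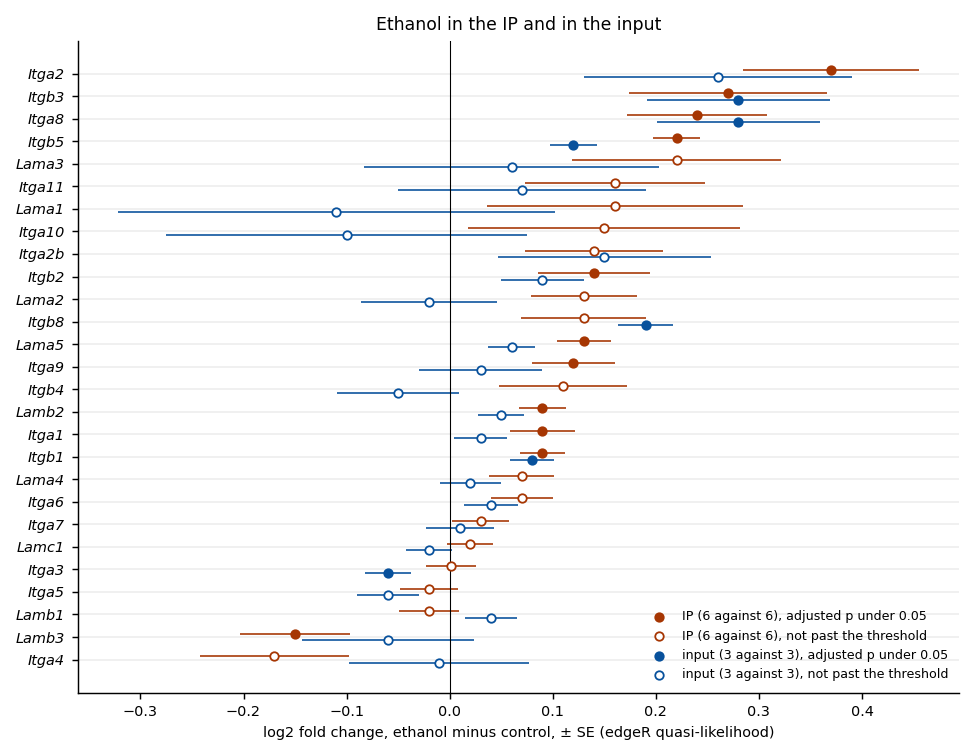
Log2 fold change, ethanol minus control, with its SE, of members with at least 1 CPM in either fraction, in the IP (6 against 6 libraries) and the input (3 against 3). Filled points passed the threshold in edgeR's quasi-likelihood test; Itga2 stands highest at 0.37 and Itga4 lowest of those drawn at -0.17 in the IP.

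Seen by class, 8 of 8 integrin β subunits and 10 of 12 integrin α subunits had a positive log2 fold change in the IP. Their medians were 0.14 and 0.11, against 0.01 over all genes tested. Of each class 4 were called upregulated and none downregulated, where 11.9% of all genes were upregulated and 9.48% downregulated. The positive β subunits included Itgb6 (0.03 ± 0.848, SE) and Itgb7 (0.14 ± 0.333), both under 1 CPM, whose signs are uncertain. Itgb4 was at -0.065 over IP replicates 4 to 6. With GC and length trends removed, 3 β subunits (Itgb1, Itgb5 and Itgb8) and 2 α subunits (Itga2 and Itga8) were called upregulated, and 3 α subunits (Itga3, Itga4 and Itga5) were called downregulated. Of the laminin chains 7 of 11 were positive, 2 were called upregulated and 2 downregulated. With GC and length trends removed, the upregulated chains Lama5 and Lamb2 lost their calls and no laminin chain was called upregulated. The summed integrin β level per kb was 454 to 467 CPM per kb in control and 490 to 513 CPM per kb in ethanol IP libraries, and 416 to 431 against 449 to 459 CPM per kb in the input. The summed α level in the input, with Itgav, was 142 ± 1.62 CPM per kb in control and 142 ± 2.14 CPM per kb in ethanol dishes (SD, n = 3). The ratio of the α to the β sum was lower after ethanol in every library of its fraction, at 0.332 to 0.347 in control and 0.31 to 0.325 in ethanol IP libraries, and 0.334 to 0.338 against 0.303 to 0.317 in the input.

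Other markers moved with ethanol in the same libraries. The astrocyte marker sum was 1733 to 1811 CPM in control and 1857 to 1929 CPM in ethanol IP libraries. In the input it was 1103 to 1150 CPM against 1155 to 1183 CPM. The single astrocyte markers did not all rise. Of the 10 genes, 4 were upregulated and 0 downregulated in the IP, and 4 upregulated and 3 downregulated in the input. The median log2 fold changes were 0.08 and 0.04. With GC and length trends removed, 4 were upregulated and 1 downregulated in the IP. The mural marker sum fell from 1927 to 2079 CPM to 1273 to 1500 CPM in the IP and from 1507 to 1581 CPM to 1058 to 1134 CPM in the input. Most of this sum was Acta2, at a mean of 1589.2 CPM in control and 1069.4 CPM in ethanol IP libraries. Of the 10 mural markers, 4 were downregulated and 1 upregulated in the IP, and 3 and 0 in the input. Acta2 was at a log2 fold change of -0.56 in the IP and -0.59 in the input, and Cnn1 at -0.70 and -0.73. Tagln, counted on its own strand, was at -0.52 and -0.47. Their part in the integrin and laminin results was not tested.

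In a fit over 18 libraries that did not account for shared dishes, no member was called for a different response in IP and input. The difference between the ethanol effects, tested as an interaction over the 18 libraries, was called by edgeR for 0 of 31 members and 0% of all genes; 1 member, Itgb5 (0.08, 95% interval 0.01 to 0.15), and 1459 genes had an unadjusted p under 0.05, and DESeq2 called 0 members and 2 genes. The intervals were -0.07 to 0.07 for Itgb1, -0.27 to 0.16 for Itga8 and -0.31 to 0.26 for Itgb3. With dish as a block over the 12 libraries of dishes sequenced in both fractions, 1 member was called, Lama5, whose effect was 0.14 larger in the IP (edgeR adjusted p = 0.00878); it did not pass once GC and length trends were also removed. With equal numbers, IP replicates 4 to 6 alone, 12 members were called, 11 upregulated and 1 downregulated, where 15.2% of all genes were called, 7.45% upregulated and 7.72% downregulated; 15 members did not overlap, against 27.1% of all genes.

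Genes of the proteins that work with integrins inside the cell were more often called lower than higher after ethanol. Of 33 integrin activators and adhesion-complex proteins, such as talins, kindlins and α-actinins, 2 were upregulated and 13 downregulated by ethanol in the IP and 0 and 15 in the input, with median log2 fold changes of -0.06 and -0.05. Of all genes tested 21.4% were called in the IP and 15% in the input, and of those averaging 1 CPM or more 36.8% and 26.4%. With GC and length trends removed, 0 of the 33 were upregulated and 15 downregulated in the IP. Lims2, an adaptor of the complex with integrin-linked kinase, was downregulated by -0.46 ± 0.0423 in the IP and -0.36 ± 0.0615 in the input, and Actn1, which crosslinks actin at adhesions, by -0.24 ± 0.0408 and -0.23 ± 0.0224 (edgeR adjusted p = 0.000462 and 1.24e-22). The kinase itself, Ilk, had 117 to 329 read pairs per library because most of its pairs were set aside in the unstranded counting; on its own strand it had 19826 to 42529 pairs per library and fell by -0.29 ± 0.0236 in the IP and -0.26 ± 0.0228 in the input. The mural markers above, which include cytoskeletal genes, were also more often called lower than higher, though most were not called in the input. Their part in this result was not tested. Between the fractions 20 of the 33 were higher and 12 lower in the IP, with Tln2 at 0.74 and the leucocyte proteins Fermt3 and Parvg at -1.98 and -2.08. Of all genes tested 51% were called between the fractions, and 76.3% of those averaging 1 CPM or more.

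Matrix proteins that integrins bind or that accompany laminins in the basement membrane were split. Of 22, 5 were upregulated and 3 downregulated by ethanol in the IP and 4 and 8 in the input. With GC and length trends removed, 5 were upregulated and 8 downregulated in the IP. Without that removal 21.4% of all genes tested were called in the IP and 15% in the input, and 36.8% and 26.4% of those averaging 1 CPM or more. Thbs1, thrombospondin, which binds integrins and CD47, was downregulated by -0.31 ± 0.0278 and -0.34 ± 0.0216, at 1587.8 ± 49.5 CPM in control and 1271.7 ± 67.5 CPM in ethanol IP libraries (SD, n = 6). Postn, periostin, a ligand of integrins with Itgav, was downregulated by -0.32 ± 0.081 and -0.39 ± 0.081. Spp1, osteopontin, was upregulated by 0.19 ± 0.0307 in the IP, and Npnt, nephronectin, the ligand of the integrin with Itga8, was downregulated by -0.16 ± 0.0242 in the input. Between the fractions all 22 were called, 13 higher and 9 lower in the IP, with Vtn, vitronectin, at -2.01, Tgfb1 at -1.19 and Postn at -1.14. The share called was 51% of all genes tested and 76.3% of those averaging 1 CPM or more.

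The other main laminin receptor, dystroglycan, was also upregulated. Dag1, which encodes it, was at 866 ± 12.7 CPM in control and 967 ± 15.8 CPM in ethanol IP libraries (SD, n = 6), a log2 fold change of 0.17 ± 0.0216, and was upregulated by 0.12 ± 0.0221 in the input (edgeR adjusted p = 1.35e-08 and 1.23e-06). At 136 ± 2 CPM per kb in control IP libraries it lay between Lamb2 and Itgb5. Of the 22 genes of the dystroglycan complex and other laminin receptors, 8 were upregulated and 2 downregulated in the IP and 9 and 1 in the input, including Dtnb (0.16 and 0.13), and Sntb2 in the IP (0.14) and Sgcb in the input (0.12). The shares called were 21.4% and 15% of all genes tested, and 36.8% and 26.4% of those averaging 1 CPM or more. With GC and length trends removed, 6 of the 22 were upregulated and 3 downregulated in the IP, and 6 and 2 in the input. Between the fractions 13 were higher and 4 lower in the IP, with Dag1 at 0.45, Dtna, the dystrobrevin of glia, at 0.50, and Rpsa, a ribosomal protein also described as a laminin receptor, at -0.88. Here 51% of all genes tested were called, and 76.3% of those averaging 1 CPM or more. Of the 6 letter-named integrin subunits 1 was higher, Itgav by 0.12 ± 0.032, and 4 lower in the IP, and ethanol upregulated none in the IP and Itgav alone in the input.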

How the data were processed

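RNA of 12 dishes was sequenced as IP, and that of 6 of them also as input. The authors used Trimmomatic for trimming, STAR for alignment against GRCm38, and SAMtools (versions not given in the sources used here). They deposited raw unstranded read pair counts per gene from a stranded total RNA library, which sets aside pairs shared by overlapping genes (mean 5.5% of pairs ambiguous, 3.6% multimapping).

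Genes with at least 10 pairs over 18 libraries were tested (24495 of 51912). edgeR 4.0.16 (R 4.3.3) with TMM scaling fitted robust quasi-likelihood models: IP against input with treatment as covariate, ethanol against control within IP and within input, and their interaction, with Benjamini-Hochberg adjustment at 0.05. SEs are the log2 fold change over the root of F, and intervals are at 95%. CPM was TMM-scaled, and lengths are merged exons of GENCODE M21. The method was tested on simulated data.

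The members and gene lists were chosen with earlier results of these data known. One member enters the counts over members but its values are not reported here. Genes named outside the members were the 3 largest called per list and comparison, plus Itgav, Ilk on its own strand and others chosen after their values were seen. Input and IP of replicates 4 to 6 share a dish: same-dish deviations correlated at 0.036 to 0.173, against -0.127 to 0.099 for other dishes. Across treatments a replicate number joins no dishes. Alternatives were DESeq2 1.42.0, other scalings and filters, own-strand counts, a minimum fold of 1.2, GC and length trends removed, blocks and libraries left out; the bias-adjusted quasi-likelihood and some block fits were chosen after seeing the data.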

Additional observations from a re-analysis of the deposited data

Results flagged for a closer look

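Itga3 in control IP replicate 5 stood below the other control IP libraries of its group, at 442 CPM against 458 to 467 CPM. It was the only one of 56 groups of 6 libraries tested in which the end library stood this far from the rest, where chance gives about 1 in 20. The ethanol effect on Lama5 was larger in the IP than in the input by 0.14 on the log2 scale when dish was a block over the 12 libraries of dishes sequenced in both fractions (edgeR adjusted p = 0.00878); over all 18 libraries without the block the difference was 0.07 (95% interval -0.02 to 0.15) and did not pass.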

How the results depend on the processing

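With a 1.2-fold change as the null, 14 members were called for IP against input and 0 for ethanol in the IP, in the input or in IP replicates 4 to 6; over all genes these counts were 4936, 95, 55 and 65. IP replicates 1 to 3 alone gave 6 members for ethanol. Over all genes, IP replicates 1 to 3 gave 2995 and replicates 4 to 6 gave 3714 called against 5233. Leaving out one library gave 23 to 26 members for IP against input, 7 to 14 for ethanol in the IP (7 without IP_control 3 or IP_ethanol 4), 5 to 8 in the input, 0 for the difference of effects and 7 to 11 in IP replicates 4 to 6 (7 without IP_control 4). Over all genes the same fits called 12069 to 12503, 4616 to 5244, 2861 to 3164, 0 to 1 and 2665 to 3341.

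The replicate block gave 14 members for ethanol in the IP, 7 in the input and 12 in IP replicates 4 to 6, and 13 and 8 in IP and input with GC and length trends removed, where all genes gave 5782, 3829, 4193, 5827 and 3864; across treatments a number joins no dishes, and same-numbered deviations correlated at -0.119 to 0.298 in the IP and 0.038 to 0.071 in the input. With dish as a block over 12 libraries, IP against input gave 25 members and 11659 genes, losing Itga11 and Itga6 and gaining Itgb8 and Lama3, and the difference of effects gave 1 member and 102 genes, or 0 and 56 with GC and length trends removed.

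Some values changed sign between fits. With GC and length trends removed, ethanol in the IP gave -0.038 for Lamc1 (-0.039 with the block), -0.022 for Itga7 and -0.064 for Itga3, of which Itga3 passed. IP replicates 1 to 3 gave -0.021 for Itga7 and -0.025 for Itga3, and replicates 4 to 6 gave -0.065 for Itgb4 and 0.012 for Itga5. Over IP replicates 1 to 3 Itgb4 was at 0.268 and passed (edgeR adjusted p = 0.0175). With one input library left out, the ethanol value in the input ranged from -0.204 to 0.056 for Lamb3 (positive without input_ethanol 5), -0.077 to 0.086 for Itga4 (positive without input_control 5), -0.334 to 0.1 for Itga10 (positive without input_control 4), -0.018 to 0.055 for Lama4 (negative without input_ethanol 4), -0.107 to 0.022 for Itgb4 (positive without input_ethanol 6) and -0.117 to 0.232 for Lama3 (negative without input_ethanol 6). The difference of effects ranged from -0.223 to 0.035 for Lamb3 (positive without input_ethanol 6), and was 0.129 for Itgb3 and -0.001 for Itgb4 with the dish block, and -0.011 for Lamc1, -0.018 for Lamb2 and -0.099 for Itgb4 with the block and trends removed. The cause was not tested. In the IP, Itga2, Itga8, Itgb5, Itgb1, Lama5 and Lamb2 passed without any single library. Over IP replicates 1 to 3 alone Itgb1, Lama5 and Lamb2 did not pass. Itgb6, with 0 to 6 pairs per library, had an ethanol interval of -4.78 to 1.02 in the input.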
